A study of Mus musculus with 44 samples.

Results

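Tnfaip3, Nfkbia, Bcl3, Malt1 and Birc3 are 5 genes whose products act in or restrain NF-kB signalling, taken from 21887 protein-coding genes. They were chosen by name because NF-kB peaks had been seen near them in these data, so the positions below are a description and were not tested. Every peak within 100 kb of each gene span in mm10 was collected from 8 deposited peak lists. The study grew macrophages from the bone marrow of C57BL/6 mice, either wild type (WT) or Dnmt3a knockout (KO). Dnmt3a is a de novo DNA methyltransferase, and the labels do not describe the deleted allele. Marrow cells were cultured with 30 ng/ml of M-CSF, the growth factor of macrophages, and collected at day 8 to 10. Cells were left untreated or received 10 ng/ml lipopolysaccharide (LPS), a bacterial cell wall component, for 6 hours. Chromatin was precipitated with an antibody to IRF3 or to NF-kB, the latter without a stated subunit, in 22 of the 44 samples. Each NF-kB list merges 3 samples and each IRF3 list 2 or 3. The labels do not say whether the samples came from separate animals. The lists hold no expression values, so neither the Dnmt3a deletion nor the macrophage identity was checked against them.

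NF-kB dimers are held in the cytoplasm of resting cells by IkB proteins. LPS acts through Toll-like receptor 4, and the kinase cascade below it leads to the destruction of IkB and the entry of NF-kB into the nucleus. There NF-kB switches on inflammatory genes and also genes for its own inhibitors, which is a textbook negative feedback loop of macrophages.

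Around the 5 genes, 11 peaks were listed, all of them for NF-kB with LPS. The KO list held 8 of them, near all 5 genes, and the WT list held 3, near Tnfaip3, Bcl3 and Malt1. With overlapping or abutting peaks joined, the 11 peaks made up 7 positions, of which 3 were listed in both genotypes. Within 100 kb of all protein-coding genes, 15.2% had a peak in the KO LPS list and 15.5% in the WT LPS list. No peak was listed within 100 kb of any of the 5 genes in either untreated NF-kB list, where the background shares were 9.62% in WT and 18.4% in KO. No peak was listed there in any of the 4 IRF3 lists either. The IRF3 background shares in WT were 6.47% without and 8.51% with LPS, those in KO 10.5% without and 11% with LPS, and 17% of all genes had an IRF3 peak in at least 1 list. Because the genes were chosen from these peaks, nothing is read from the distance between those counts and the background.

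**Figure D1:**
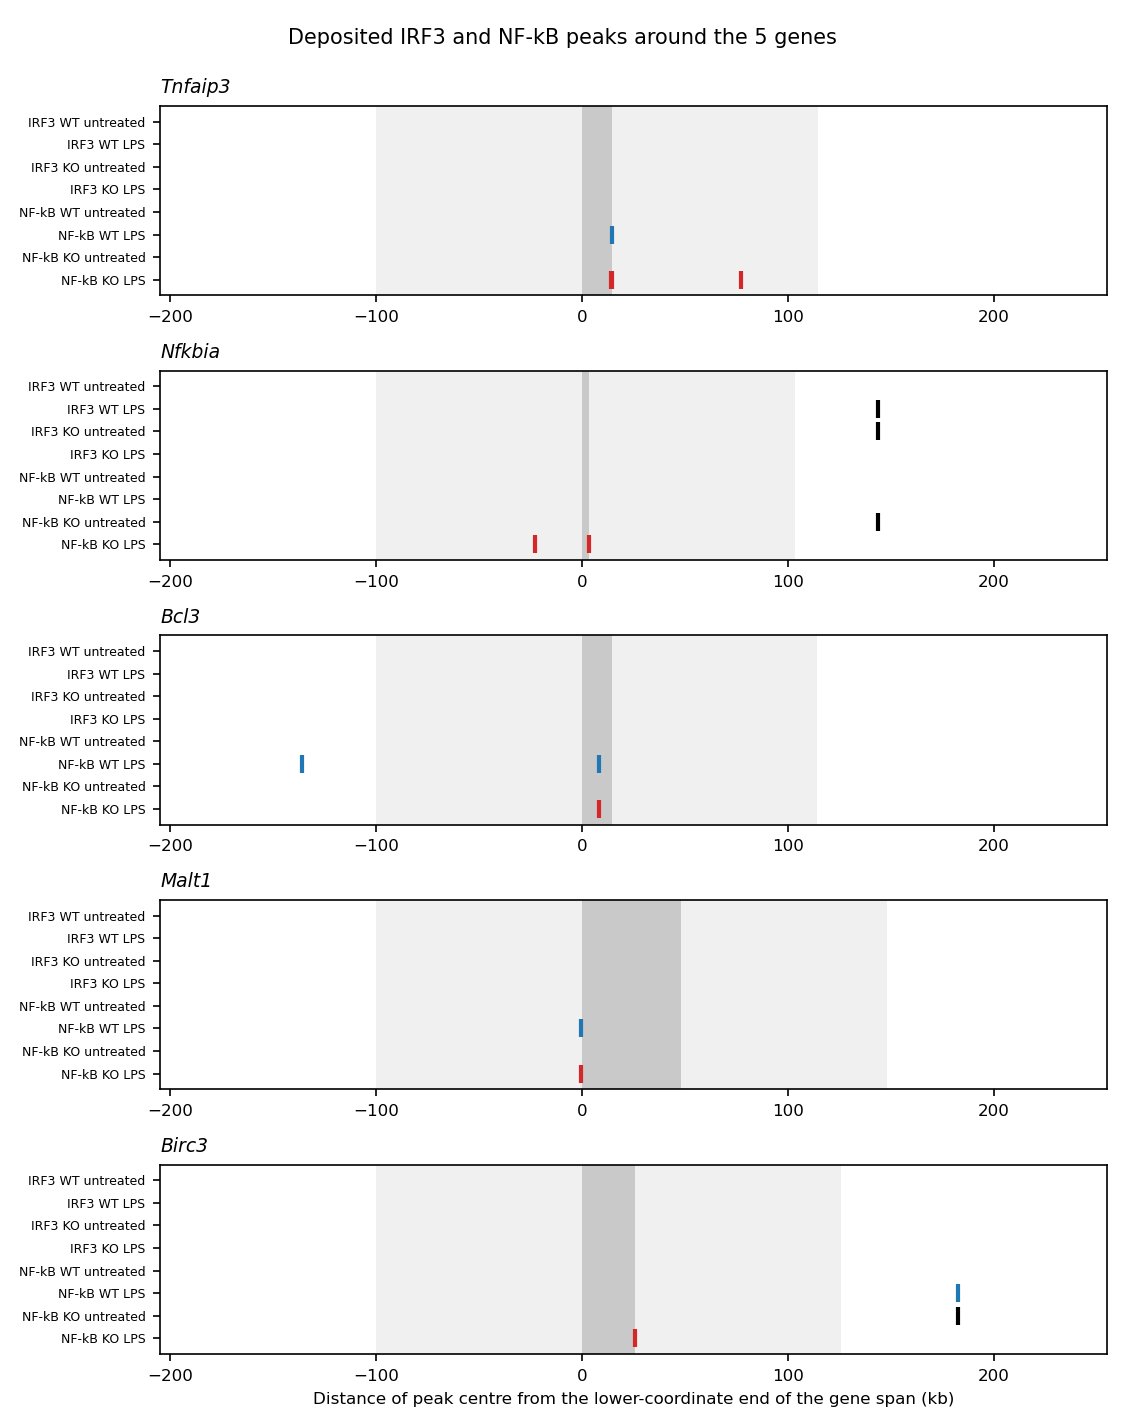
Peaks of the 8 lists around the 5 genes, by distance of the peak centre from the lower-coordinate end of the gene span in kb. Each tick is 1 peak and is not drawn to its width, dark grey is the gene span, light grey the window of 100 kb on either side, and the WT LPS (blue) and KO LPS (red) lists of NF-kB hold all 11 peaks inside the windows.

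The promoters of Tnfaip3, Nfkbia and Birc3 are shown because a KO LPS peak lay on each of them. They are the RefSeq windows of GRCm38.p6, the assembly named mm10, from 250 bases before the annotated start site to 50 bases from it onwards, printed 5′ to 3′ on the gene's own strand, which is the minus strand for all 3. Capitals mark matches, on either strand, to a loose kappa B pattern, GGGNNNNNCC, the kind of site that NF-kB dimers recognise. Matches that overlap each other are joined.
Tnfaip3, chr10:19015361-19015660, minus strand: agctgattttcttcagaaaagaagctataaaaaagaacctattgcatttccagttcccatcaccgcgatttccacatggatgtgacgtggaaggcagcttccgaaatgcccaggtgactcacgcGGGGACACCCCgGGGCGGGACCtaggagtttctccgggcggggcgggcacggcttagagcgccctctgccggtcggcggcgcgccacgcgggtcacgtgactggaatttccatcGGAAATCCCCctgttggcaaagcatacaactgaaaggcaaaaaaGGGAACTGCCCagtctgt
Nfkbia, chr12:55492598-55492897, minus strand: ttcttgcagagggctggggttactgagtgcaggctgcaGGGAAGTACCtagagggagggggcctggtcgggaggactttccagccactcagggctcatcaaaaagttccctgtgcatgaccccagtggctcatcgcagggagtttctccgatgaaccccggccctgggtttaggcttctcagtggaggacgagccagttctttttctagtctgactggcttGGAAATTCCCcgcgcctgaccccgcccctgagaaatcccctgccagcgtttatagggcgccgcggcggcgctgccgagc
Birc3, chr9:7873121-7873420, minus strand: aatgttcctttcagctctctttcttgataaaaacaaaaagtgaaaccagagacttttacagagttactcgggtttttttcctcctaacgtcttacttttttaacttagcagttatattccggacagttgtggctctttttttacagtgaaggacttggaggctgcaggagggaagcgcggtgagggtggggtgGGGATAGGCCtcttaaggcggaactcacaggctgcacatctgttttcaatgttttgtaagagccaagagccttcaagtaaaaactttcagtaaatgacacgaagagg

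Tnfaip3 encodes A20, a ubiquitin-editing enzyme that shuts down signalling to NF-kB. Its gene spans 14501 bp on chromosome 10 (19000910 to 19015410), with no other protein-coding gene within 100 kb. In WT with LPS its only peak was 302 bp wide (19015399 to 19015700). That peak ran from 290 bp upstream of the start site to 11 bp downstream of it and covered 262 of the 300 bases of the promoter window. In KO with LPS the corresponding peak was 372 bp wide (19015334 to 19015705) and covered the whole window. It contained the WT peak entirely, with the centres 30 bp apart. A second KO peak of 281 bp (19015053 to 19015333) began at the next base and reached 357 bp downstream. Both abutting KO peaks carry the same deposited signal value, 26.9, and the WT list has no counterpart to the downstream part. The second annotated start site of the gene, at position 19011963, had no peak on its window in any list.

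The Tnfaip3 promoter peak stood high in both LPS lists. It ranked 53 of 2376 in KO, with a deposited q-value of 0.00297, and 389 of 2494 in WT, with a q-value of 0.0695. Among the 698 KO peaks under 500 bp it ranked 5, and among the 615 such WT peaks it ranked 20. These p-values, q-values and signal values are the authors' own, serve here only to place a peak within its list, and show no change between lists. Farther out, KO with LPS had a peak of 423 bp (19077828 to 19078250) 62418 bp upstream of the start site, the most distant of the 11. That distal peak lay 8376 bp from the long noncoding RNA gene 1700124M09Rik, ranked 704, had a q-value of 0.282, and was not listed in WT.

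Nfkbia encodes IkBa, the inhibitor that retains NF-kB in the cytoplasm and is made anew after each activation. The gene spans 3239 bp on chromosome 12 (55489409 to 55492647). Both of its peaks came from KO with LPS. The first was 328 bp wide (55492730 to 55493057) and covered 168 bases of the promoter window, from 83 to 410 bp upstream of the start site. The long noncoding RNA gene Gm36634 lay 238 bp from the same peak, so the peak cannot be assigned to Nfkbia by position alone. It was the lowest-ranked of the 11, at 2153 of 2376 with a q-value of 0.912, which is the largest in that list. The other peak, 157 bp wide (55466401 to 55466557), lay 22852 bp beyond the downstream end of the gene, ranked 1138 and had a q-value of 0.520. Just outside the window, a position about 140 kb upstream was listed in untreated KO for NF-kB, in untreated KO for IRF3 and in WT with LPS for IRF3. Its peaks were 771, 864 and 590 bp wide and lay 140056, 140099 and 140265 bp from the gene. They overlapped the span of another protein-coding gene, Ralgapa1.

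Bcl3 encodes a nuclear IkB protein that works with NF-kB dimers on DNA instead of holding them in the cytoplasm. Its span of 14363 bp on chromosome 7 (19808462 to 19822824) lies in a dense stretch, with 8 other protein-coding genes within 100 kb. Here the peaks lay inside the gene and away from the start site. The WT LPS peak was 170 bp wide (19816451 to 19816620) and began 6135 bp downstream of the start site, while the KO LPS peak was 146 bp wide (19816440 to 19816585) and began 6170 bp downstream. They shared 135 bp, which is 92.5% of the KO peak and 79.4% of the WT peak, with the centres 23 bp apart. The noncoding RNA gene Gm16174 also overlaps both. The peak ranked 1998 of 2494 in WT (q-value 0.869) and 767 of 2376 in KO (q-value 0.305). Whether it lies in an exon or an intron was not determined, because the gene table used here gives spans only. WT with LPS also had a 740 bp peak 135494 bp away, outside the window.

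Malt1 encodes a paracaspase, the protease of the CARD-BCL10-MALT1 complex, which both relays signals to NF-kB and cleaves A20. It spans 47950 bp on chromosome 18 (65430939 to 65478888). A single position was listed in each genotype with LPS, just beyond the lower-coordinate end of the gene. In WT the peak was 245 bp wide (65430411 to 65430655) and 284 bp from the gene. In KO it was 208 bp wide (65430388 to 65430595) and 344 bp from the gene. The peaks shared 185 bp, or 88.9% of the KO peak and 75.5% of the WT peak, with the centres 41.5 bp apart. After the Tnfaip3 promoter this was the best-placed position, ranked 133 in KO with a q-value of 0.0195 and 365 in WT with a q-value of 0.0623. In the WT list it stood ahead of the Tnfaip3 peak. The promoter table holds no window for Malt1, so its position is given from the gene span.

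Birc3 encodes cIAP2, a ubiquitin ligase that acts with TRAF proteins below the receptors for tumour necrosis factor. It spans 25738 bp on chromosome 9 (7847468 to 7873205). Its only peak came from KO with LPS and was 177 bp wide (7872986 to 7873162). That peak lay just inside the gene, from 8 to 184 bp downstream of the start site, and covered the last 42 bases of the promoter window. It ranked 601 of 2376 with a q-value of 0.221. The neighbouring gene Birc2, which encodes the related ligase cIAP1, lay 35855 bp from the same peak and had no further peak within 100 kb. The nearest WT LPS peak lay 156515 bp from Birc3, and an untreated KO NF-kB peak at the same position lay 156490 bp from it. Both overlapped the span of another protein-coding gene, Cfap300.

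**Figure D2:**
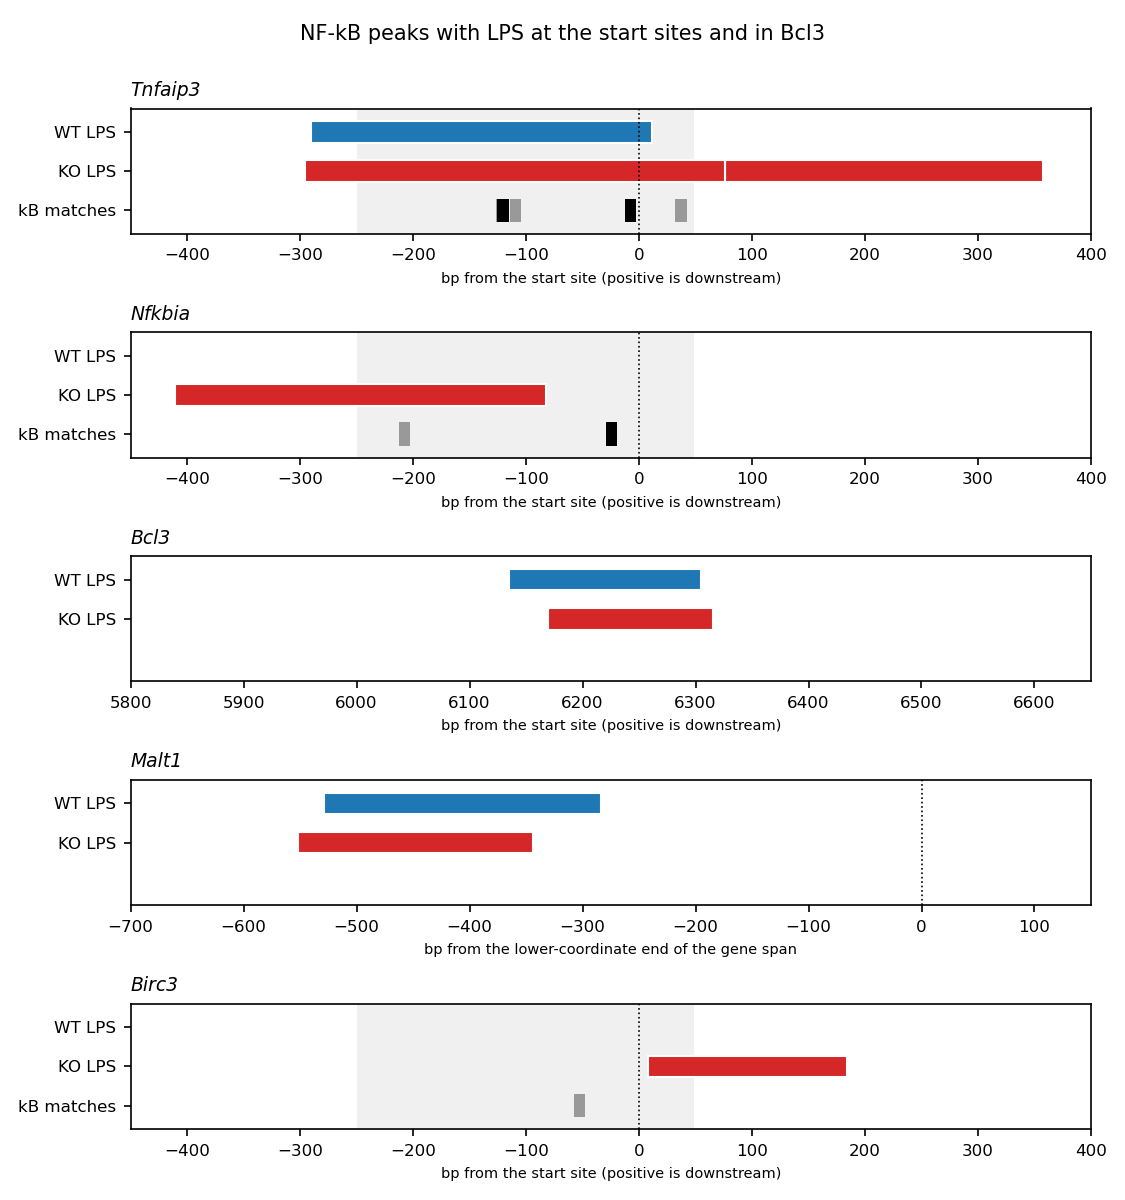
NF-kB peaks with LPS, drawn to scale in bp from the start site (from the lower gene end for Malt1), WT in blue and KO in red, with the promoter window shaded for the 3 genes with a peak on it. Grey marks are matches to the loose kappa B pattern and black marks to the stricter kappa B consensus, both searched only in promoter windows. At Tnfaip3 both black marks lie under both peaks, and at Nfkbia the black mark lies downstream of the KO peak.

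Kappa B matches were searched in the promoter windows only, so peak bases outside a window were not searched. The search left out the Bcl3 and Malt1 peaks entirely. It took in 42 of the 177 bp of the Birc3 peak and 168 of the 328 bp of the Nfkbia promoter peak. Within the windows, the genes differed in how their peaks sat relative to the matches. A stricter form, the kappa B consensus, was searched by name beside the loose pattern, on both strands. In the Tnfaip3 window it matched at GGGACACCCC, from 125 to 116 bp upstream of the start site, and on the other strand at GGGGATTTCC, from 12 to 3 bp upstream. Both lay under the WT and the KO peak. In the Nfkbia window it matched on the other strand at GGGAATTTCC, from 29 to 20 bp upstream, which lay outside the KO peak. That peak instead covered a match to the loose pattern, GGGAAGTACC, from 212 to 203 bp upstream. The Birc3 window held only a loose match, GGGATAGGCC, from 57 to 48 bp upstream and outside the peak. The Bcl3 window held the stricter consensus on the other strand, GGGACTTCCC, from 2 to 11 bp downstream of the start site, and no peak of any list covered that window. The second Tnfaip3 window held no match to it.

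Matches of the loose kind are common. The pattern occurred in 50.8% of 32807 distinct promoter windows of the same length, the stricter consensus in 4.51%. The consensus occurred in 7 of the 29 windows under a KO LPS NF-kB peak (24.1%) and in 4 of the 24 under a WT LPS one (16.7%), counts that include Tnfaip3 and, in KO, Nfkbia. In each of the other 6 lists it occurred in 1 window of only 6 to 17, or 5.88 to 16.7%, and with counts this small the lists are not set against each other. The core of the interferon-stimulated response element to which IRF factors bind, searched as GAAANNGAAA on both strands, was in none of the 5 member windows and in 3.43% of all windows. A match is only a run of letters, and its absence from a window says nothing of the factor. The windows also differed in base composition. GC content was 56.7% for the first Tnfaip3 window, 61.0% for Nfkbia, 69.0% for Bcl3 and 43.0% for Birc3, against a median of 52.7% over all windows. These windows held 22, 15, 26 and 7 CpG sites, the sequence that Dnmt3a can methylate, against a median of 7. Methylation was not analysed here.

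Peaks on a promoter window were rare in every list. In KO with LPS 24 of 2298 peaks lay on a window (1.04%), and 3 of these 24 belonged to Tnfaip3, Nfkbia and Birc3. In WT with LPS 21 of 2407 did (0.872%), of which 1 belonged to Tnfaip3. None of the promoter peaks in the other 6 lists belonged to these genes. The shares there were 0.494% in untreated WT and 0.54% in untreated KO for NF-kB. For IRF3 they were 0.53% without and 0.58% with LPS in WT, and 0.363% without and 0.521% with LPS in KO. As listed, all 11 member peaks were under 500 bp, between 146 and 423 bp with a median of 245 bp. This counts the 2 abutting KO peaks of Tnfaip3 apart. Joined, they would run from 19015053 to 19015705 and exceed 500 bp. Peaks of that width made up 29.4% of the KO LPS list and 24.7% of the WT LPS list, in which the median width was 943.5 and 1035 bp.

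**Figure D3:**
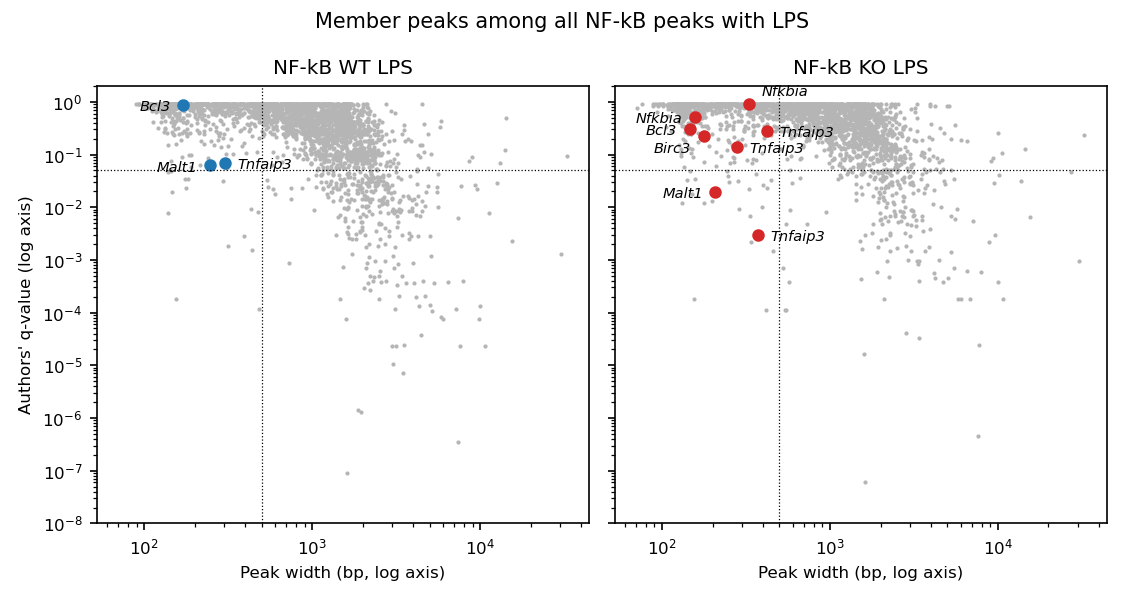
Width in bp and the authors' q-value, both on log axes, of every NF-kB peak with LPS in WT and KO (grey) and of the member peaks (coloured and named); the dotted lines mark 500 bp and a q-value of 0.05. All 11 member peaks lie left of the width line, and the Tnfaip3 promoter peak and the Malt1 peak of KO lie below the q-value line.

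The LPS comparison asked which positions appeared with treatment. In WT, 3 of the 5 genes had a peak with LPS and none without it, against 8.36% of all genes. In KO all 5 did, against 5.11%. The nearest untreated NF-kB peak was 607.534 to 1280.231 kb from the genes in WT and 140.056 to 1499.737 kb in KO. Over all genes the median distance to the nearest peak was 811 kb in the untreated WT list and 394 kb in the untreated KO list, and over the 5 genes it was 937.4 and 937.1 kb. Among the 899 KO LPS peaks that overlapped no untreated KO peak, the Tnfaip3 promoter peak ranked 4, Malt1 ranked 11, Birc3 84, Bcl3 138 and the Nfkbia promoter peak 773. Among the 1546 such peaks of WT, Malt1 ranked 52, Tnfaip3 59 and Bcl3 1109.

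The genotype comparison asked how KO and WT differed with LPS. It uses the same LPS lists as the treatment comparison. The positions at the Tnfaip3 promoter, inside Bcl3 and beside Malt1 were listed in both genotypes, overlapping by at least 88.9% of the narrower peak. Of all genes, 10.2% had a peak within 100 kb in both LPS lists, whether or not at the same position. The share with an overlapping position was not computed. Nfkbia and Birc3 had a peak in KO alone, as did 5.06% of all genes, while 5.32% had a peak in WT alone. The KO list also held the abutting downstream peak and the distal peak of Tnfaip3. None of the KO peaks that overlapped no WT peak had a q-value under 0.05, and their q-values ran from 0.142 to 0.912. The lowest of these belonged to the Tnfaip3 peak that abuts the shared promoter peak. With a q-value under 0.05 required, the genes listed in KO alone were instead Tnfaip3 and Malt1, and 0 of the 5 remained in WT. Few peaks of either list met that requirement, 227 of 2376 in KO with LPS and 330 of 2494 in WT with LPS. Of all genes, 1.78% then kept a peak within 100 kb in the KO LPS list and 2.73% in the WT one. Within 200 kb in place of 100 kb, Birc3 also had a WT LPS peak. The absence of a peak from a merged list is not evidence that the factor was absent, since neither read depth nor the threshold for listing a peak is stated in the labels or the lists.

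The factor comparison set IRF3 beside NF-kB. IRF3 acts with NF-kB below Toll-like receptor 4, mainly at interferon genes. No IRF3 peak lay within 100 kb of any of the 5 genes in any of the 4 conditions. The IRF3 position nearest to any of them was the one 140 kb from Nfkbia. In the other conditions the nearest IRF3 peaks lay 578.486 to 5259.305 kb away in untreated WT and 593.788 to 3299.497 kb away in KO with LPS. Over all genes the medians in these lists were 1281 and 705 kb, and over the 5 genes 2226 and 806 kb. In WT with LPS and in untreated KO the medians were 933 and 736 kb over all genes, and 937 and 709 kb over the 5 genes.

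The pattern of lists was not particular to the 5 genes. Within 10 kb, Tnfaip3, Bcl3 and Malt1 had peaks in the WT and KO LPS lists of NF-kB and in no other, as did 57 genes in all (0.26%). Nfkbia and Birc3 had peaks in the KO LPS list alone, as did 139 genes in all (0.635%). Within 100 kb the same 5 genes kept these patterns, which 244 genes (1.11%) and 529 genes (2.42%) then had.

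Other genes of the NF-kB pathway were taken from a list of 56, ordered by role. Within 10 kb, 6 of them had a peak in the KO LPS list of NF-kB (10.7%, against 3.97% of all genes), 3 in the WT LPS list (5.36% against 4.1%), 3 in the untreated KO list (5.36% against 4.95%) and 1 in the untreated WT list (1.79% against 2.45%). Within 100 kb the shares were 21.4% against 15.2%, 16.1% against 15.5%, 17.9% against 18.4% and 8.93% against 9.62% in the same order of lists. An IRF3 peak lay within 10 kb of 1 of the 56 (1.79%), against 4.52% of all genes. No list held a peak within 10 kb of the 5 genes for NF-kB subunits, Rela, Relb, Rel, Nfkb1 and Nfkb2. The same held for 48 of the 56 pathway genes (85.7%), so nothing is read from it. Single lists had a peak within 10 kb of 1.67 to 4.95% of all genes, and the share over all 8 lists together was not computed. Within 100 kb, Relb had an NF-kB peak at 42791 bp in WT with LPS and Nfkb2 at 71430 bp in untreated KO.

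Of the 56 pathway genes, 2 shared the pattern of Tnfaip3, with peaks within 10 kb in both LPS lists of NF-kB and in no other list (3.57%, against 0.26% of all genes). Within 100 kb it was again 2 of the 56, against 1.11% of all genes. Tnip1 encodes ABIN-1, a ubiquitin-binding partner of A20. Its KO peaks, 250 and 270 bp wide on chromosome 11 (54936162 to 54936411 and 54936412 to 54936681), abut like those of Tnfaip3 and lie inside the gene, 26259 to 26778 bp downstream of the start site. The better of them ranked 163 with a q-value of 0.0299, and the WT peak (54936198 to 54936716) ranked 815 with a q-value of 0.242. Irak3 encodes IRAK-M, an inhibitory member of the kinase family below Toll-like receptors. Its peaks overlapped the start site in both genotypes with LPS, in a stretch shared with the noncoding RNA gene Gm38500, at 284 bp in WT (chromosome 10, 120201329 to 120201612, q-value 0.683) and 269 bp in KO (120201417 to 120201685, q-value 0.407). Neither gene had a peak within 100 kb in the other 6 lists. Nfkbiz, which encodes the nuclear IkB protein IkBz, had a 325 bp peak inside the gene in KO with LPS alone (chromosome 16, 55822203 to 55822527, q-value 0.420). That is the pattern of Nfkbia and Birc3, which 0.635% of all genes had within 10 kb.

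The other pathway genes with a peak within 10 kb appeared in other combinations of lists. Card14, a scaffold gene of the MALT1 complex family, had peaks of 1367 bp in untreated WT and 1598 bp in KO with LPS for NF-kB and of 729 bp in KO with LPS for IRF3. Tbk1, a kinase gene upstream of IRF3, and Ly96, which encodes the MD-2 co-receptor of Toll-like receptor 4, had NF-kB peaks in KO with and without LPS. The Ly96 peaks nearest the gene overlapped between treatments, while the Tbk1 peaks lay at separate positions. Map3k7, the gene of the kinase TAK1, had an 891 bp peak in untreated KO alone, and Otulin, the gene of a linear deubiquitinase, a 711 bp peak 8550 bp away in WT with LPS alone. Between 10 and 100 kb, the genes with the nearest peaks were Ikbke (27697 bp), Birc2 (35855 bp), Tab3 (41576 bp), Relb (42791 bp), Tlr4 (51785 bp) and Bcl10 (58441 bp). The Tlr4 peak was listed for IRF3 in untreated KO, and the others at these distances for NF-kB. Those counted for Ikbke, Relb and Bcl10 overlapped the spans of other protein-coding genes, Rassf5, Gm44805 and Ddah1. The Relb peak is the WT LPS peak that lies outside the window of Bcl3, and the Birc2 peak is the Birc3 promoter peak.

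**Figure D4:**
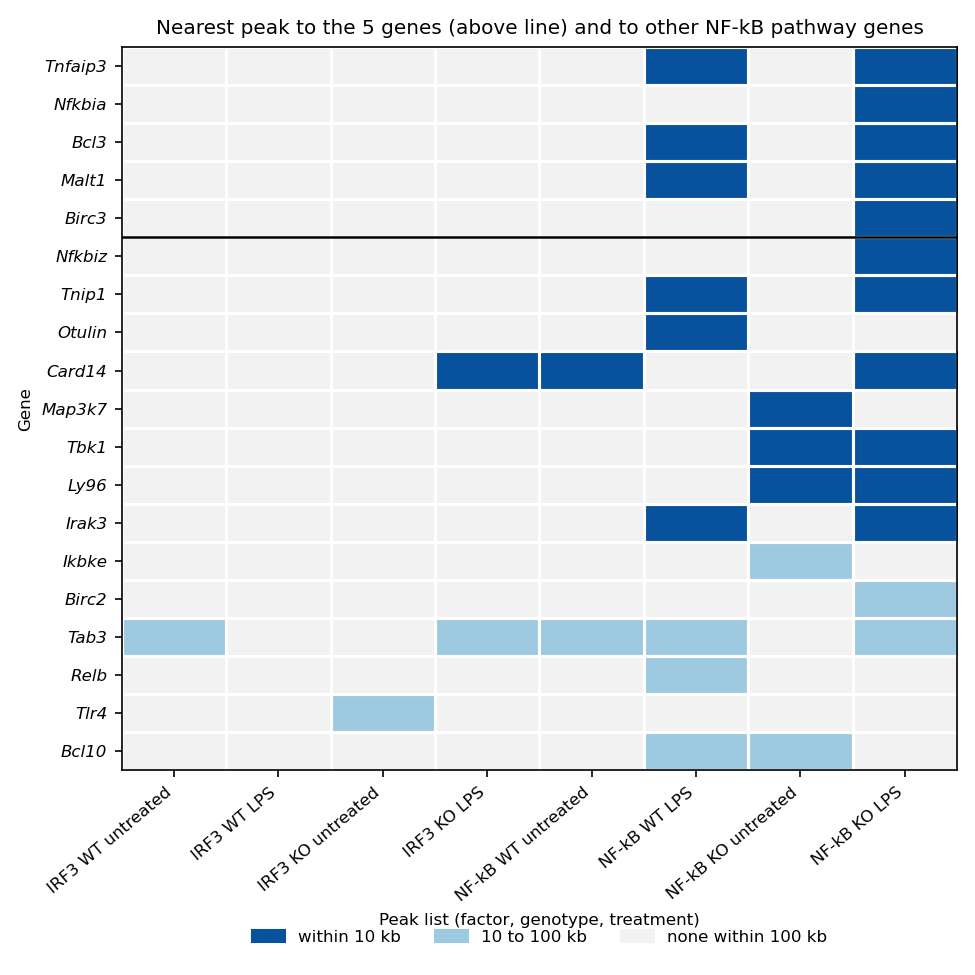
Nearest peak of each of the 8 lists to the 5 genes (above the line) and to 14 other pathway genes, in 3 classes of distance from the gene span. Dark cells are peaks within 10 kb: above the line they fall only in the WT LPS and KO LPS columns of NF-kB. Below the line the same holds for Tnip1 and Irak3 (both columns), Nfkbiz (KO LPS alone) and Otulin (WT LPS alone).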

How the data were processed

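The 8 peak lists were used as deposited, 1 per factor, genotype and treatment, each merging its group's samples per the labels. Per the submitters' processing notes, the build is mm10, and MACS2 2.1.1 and HOMER 4.9 are among the tools. The names of the lists carry the words chipr and optimal. For the aligner, the calling and merging settings and the threshold, nothing is stated in the labels or the lists, which have no header. What the p-values test is not stated either, so a rank is not read as strength of binding. Going by the values, the authors deposited for each peak a signal value, used as a score without stated normalization, a p-value and a q-value. Read depth is unknown and merged lists have no replicate spread, so no test between lists was made.

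Within a list, the rank of a peak followed its p-value, then its signal value and its width. Starts were converted to 1-based positions. Distances run from peak edge to gene span, from a GRCm38.p6 gene table. Start sites, strands and promoter sequences came from RefSeq windows of the same assembly, which cover 17492 of the 21887 protein-coding genes. Shares of peaks on windows leave out chromosomes without windows. An overlap of 1 bp made a position shared. Python 3.11.15 with pandas 2.3.3 was used, and the counting was tested on simulated peaks.

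The 5 genes, the pathway list and the settings were chosen with earlier results of these data known. The text names all 5 genes, every pathway gene with a peak within 10 kb, and the 6 next nearest within 100 kb. Alternatives were other distances, peak thresholds, list lengths, widths and overlap rules. The bisulfite, ATAC-seq and input samples were left aside.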

Additional observations from a re-analysis of the deposited data

How the results depend on the processing

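Counts were taken as unchanged when they stayed within 1.5 times the value reported. Of 220 recomputed counts, 161 did so and 59 did not, and most of the latter concern the pathway list. For the 5 genes, every count kept its value or stayed within that range within 10 and 50 kb, at equal list length, at a common p-value cutoff, with peaks under 500 bp, without regions of all 8 lists and under both other overlap rules. At equal list length (1169 peaks) Bcl3 left the WT LPS list, which made 3 genes listed in KO alone, and there as at the common p-value cutoff Nfkbia stayed in the KO LPS list only through its peak at 22852 bp. With a q-value under 0.05 required, 0 genes and 0 peaks remained in the WT LPS list and 2 genes with 2 peaks (Tnfaip3 and Malt1) in the KO LPS list, with 0 genes gained with LPS in WT, 2 in KO and 0 positions in both genotypes, so that the genes listed in KO alone were different ones. Within 200 kb, 1 gene with 1 peak was added in the IRF3 lists of WT with LPS and of untreated KO (1 gene in any IRF3 list), and 2 genes with 2 peaks in the untreated KO NF-kB list. The WT LPS list then held 5 peaks, genes gained with LPS in KO numbered 3, and 1 gene had a peak in KO alone. Shares of all genes with the same patterns were not computed within 200 kb, nor for the gained and KO-alone counts under the q-value requirement. Nothing is read from these counts.

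For the 56 pathway genes the lists are given as IRF3 and then NF-kB, each in the order untreated WT, WT with LPS, untreated KO, KO with LPS. Within 100 kb they held 3, 1, 5, 4, 5, 9, 10 and 12 genes, or 5.36, 1.79, 8.93, 7.14, 8.93, 16.1, 17.9 and 21.4%, against 6.47, 8.51, 10.5, 11, 9.62, 15.5, 18.4 and 15.2% of all genes. The counts were 0, 0, 0, 1, 1, 3, 3 and 6 within 10 kb, 1, 0, 0, 2, 2, 5, 4 and 8 within 50 kb and 10, 11, 14, 12, 13, 19, 22 and 20 within 200 kb. They were 0, 0, 1, 0, 1, 0, 1 and 2 with a q-value under 0.05 and 0, 0, 1, 1, 2, 2, 5 and 6 with peaks under 500 bp. At equal list length WT with LPS held 4 and untreated KO 3 for NF-kB, and at the common p-value cutoff untreated KO held 3 for IRF3. With a q-value under 0.05, shares of all genes were computed for NF-kB with LPS only, 2.73% in WT and 1.78% in KO. For 50 and 200 kb, peaks under 500 bp, equal list length and the common p-value cutoff, shares over all genes were not computed. A wider window takes in more peaks for any gene, so nothing is read from these counts.

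No paired analysis was possible because each deposited list merges the samples of its group, so leaving out single replicates could not be run either.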
